A study of Rattus norvegicus with 6 samples.

Results

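The nuclear pore and nuclear transport genes are 43 gene rows, carrying 42 symbols, among the 24360 gene rows counted in rat H9c2 cells. They were chosen by name: every annotated gene whose symbol begins with Nup, Kpna, Kpnb, Ipo, Xpo or Tnpo followed by a number, with Nupr1 left out because it is not a pore protein. No measured value entered that rule, but it and the gene lists below were set with earlier results of these data known. Of the 43 rows, 22 are nucleoporins and 21 are transport receptors, and Nup214 is listed under 2 identifiers. RNA was sequenced from 3 samples given ginsenoside Rb2, a saponin of ginseng (Rb2), and from 3 controls labelled NC (Ctrl), all of wild-type H9c2, 1 cell line that began as myoblasts of the embryonic rat heart. A single protocol text covers both groups: Rb2 for 48 h, then 4 to 6 h without oxygen and glucose, then 12 h after both were given back. Whether the Ctrl samples were deprived as well is not said. Nor is it said that replicates came from separate cultures, so p-values here measure the spread between samples, which may be technical.

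The nuclear pore is a large ring of proteins set in the nuclear envelope. An outer ring (the Y complex) and an inner ring form its scaffold, and nucleoporins rich in phenylalanine-glycine repeats fill the channel and bind passing receptors. Importin alpha recognises the nuclear localisation signal of a cargo and couples it to importin beta. Other import receptors bind their cargo directly, and exportins carry cargo out of the nucleus, with the direction set by the GTPase Ran. In heart muscle cells, as in others, this traffic controls the entry of transcription factors and the exit of RNA and ribosomal subunits.

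Total counts were 5521376, 5570308 and 5193077 in the Rb2 samples and 8793390, 5881914 and 5787587 in the Ctrl samples. At these depths 3 counts, taken here as an approximate upper limit for a count of 0, equal 0.341 to 0.578 CPM (counts scaled by the library's total). That limit covers counting error only, and larger values remain possible. Ctrl replicate 1, the deepest library, stood apart: over all genes its chi-square per degree of freedom was 10.8 and 17.2 against the other Ctrl samples, which differed from each other by 4.65. The mean length of the gene behind a count was 1761 to 1767 bases in the Rb2 samples and 1693, 1695 and 1747 bases in the Ctrl samples, so gene length is given beside the members. The labels call the cells embryonic cardiomyocytes. Of 12 cardiac markers with a row, 5 contractile genes (Myh7, Actn2, Tnni3, Myl2 and Myl7) had at most 2 counts in any library. Among the others, Myh6 had 6 to 10 counts per library, Mybpc3 had 9 to 23, Pln and Nppb had 1 to 8, and the cardiac transcription factor Gata4 had 30 to 49. Nkx2-5 varied within both groups, with 5, 31 and 42 counts in the Rb2 samples and 47, 6 and 2 in the Ctrl samples. Tnnt2, a cardiac troponin also made by immature skeletal muscle, had 44.3, 49.6 and 42.1 CPM in the Rb2 samples and 61.4, 49.2 and 48.0 CPM in the Ctrl samples. Of 8 skeletal muscle markers with a row, Myod1, Myog and Des had 49 to 108 counts per library and Acta1 had 10 to 31. Ckm, Chrna1 and Myh3 had at most 9 counts in any library, and Myf6 had 0. The summed level of 8 fibroblast and mesenchymal markers was 5217 to 5653 CPM in the Rb2 samples and 4861 to 5170 CPM in the Ctrl samples. Vim, Col1a1, Col1a2 and Col3a1 made up most of that sum. Of the same list, Dcn had 0 counts in every sample and Pdgfra had 1 count, in Ctrl replicate 2. The part of such cells in the results was not tested.

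The median member differed little between the groups, but the transport receptors, importin alpha among them, had a higher summed level in the Rb2 samples, with most of the difference from Kpna2. The summed counts of all members were 0.0877%, 0.0864% and 0.083% of the library in the Rb2 samples and 0.0652%, 0.0679% and 0.0759% in the Ctrl samples. After scaling by TMM, as in all CPM values given for genes, the 21 transport receptors summed to 441, 440 and 408 CPM in the Rb2 samples and 320, 326 and 366 CPM in the Ctrl samples, with no overlap. Such sums carry no test here. Without Kpna2 the transport receptors summed to 279, 279 and 257 CPM in the Rb2 samples and 260, 220 and 245 CPM in the Ctrl samples, which overlap. The 22 nucleoporins summed to 420, 394 and 385 CPM in the Rb2 samples and 376, 396 and 402 CPM in the Ctrl samples, which overlap. Kpna2 alone made up 18.8%, 19.2% and 19.0% of the members' counts in the Rb2 samples and 8.61%, 14.6% and 15.8% in the Ctrl samples. Without Kpna2 the members summed to 699, 673 and 642 CPM in the Rb2 samples and 636, 616 and 647 CPM in the Ctrl samples, and the groups overlap. In bulk RNA, fewer cells of one kind and less RNA per cell cannot be told apart.

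No single member passed the test with all 6 samples. Of 37 members with enough counts, edgeR's quasi-likelihood test called 0 higher and 0 lower in Rb2 at a Benjamini-Hochberg adjusted p under 0.05, against 1.9% of all 11551 genes called higher and 0.805% called lower. Among the 8426 known genes tested, 2.46% were called higher and 0.522% lower. At an unadjusted p under 0.05, 10 members (27.0%) were higher and 1 (2.7%) was lower, against 11.8% and 8.17% of all genes, and 14.8% and 6.92% of known genes. All Rb2 samples lay above all Ctrl samples in 12 members (32.4%) and below them in 3 (8.11%), against 15% and 12.2% of all genes, and 18.3% and 10.4% of known genes. The groups overlapped in the other 22. The log2 fold change of Rb2 over Ctrl was above 0 in 26 of the 37, against 5547 of all 11551 genes and 4548 of the 8426 known genes. Its median was 0.06 over the members, against -0.02 over all genes tested and 0.04 over known genes. DESeq2 called 1 member higher, Kpna2, against 2.8% of all genes, and limma-voom called 0, against 1.06%. On log2 of the deposited CPM, limma called 4 with a pseudocount of 1 (4.06% of all genes) and 1 with a pseudocount of 0.1 (3.33%). None of these called a member lower. On simulated counts edgeR's gene fit recovered 54% of 2-fold changes, so a lack of calls does not show a lack of change. Those changes were planted in genes with a mean count of at least 20, and 5 tested members lay under 20. Recovery for such members, and for smaller changes, was not simulated.

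**Figure D1:**
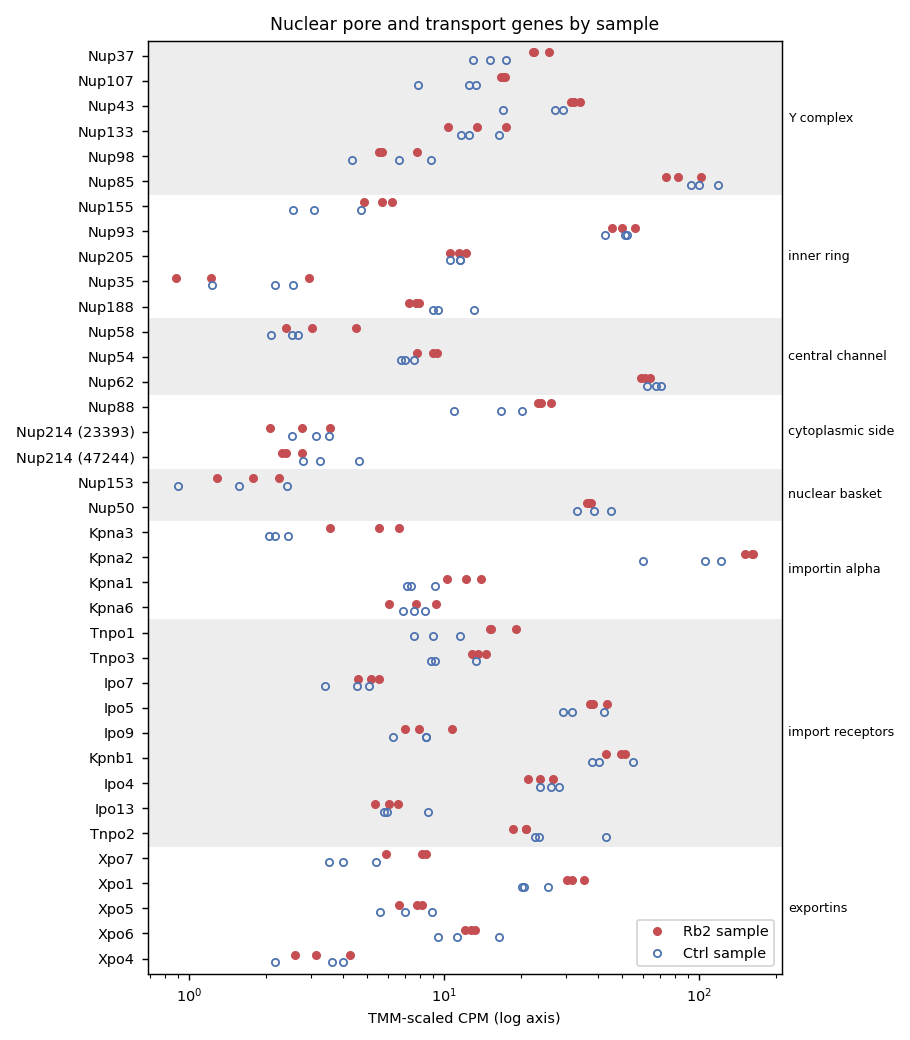
TMM-scaled CPM (log axis) of the 37 tested members, grouped by role, with a filled point for each Rb2 sample and an open point for each Ctrl sample below it. The Rb2 points of Kpna3, Kpna2 and Kpna1 lie to the right of all their Ctrl points, and in 22 members the groups overlap. The numbers behind Nup214 are the last digits of its 2 identifiers.

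Importin alpha, the adaptor that reads the classical localisation signal, held the member with the largest fold change, Kpna3, and the most abundant one, Kpna2. The 6 importin alpha genes summed to 190, 184 and 179 CPM in the Rb2 samples and 79.0, 124 and 140 CPM in the Ctrl samples. Kpna2 (1980 bases), an importin alpha known to be abundant in dividing cells, had the highest level per kilobase of all members at 64.0 CPM per kilobase. Levels per kilobase assume that counts grow with transcript length, and whether the reads were short or long is not settled by the labels and files. It had 162, 160 and 151 CPM in the Rb2 samples and 59.9, 105 and 121 CPM in the Ctrl samples. The Rb2 samples were all higher and close together, while the Ctrl samples spread widely, with replicate 1 lowest. Its mean was 158 ± 5.98 CPM in Rb2 and 95.5 ± 31.8 CPM in Ctrl (SD, n = 3 each), a log2 fold change of 0.73 with a 95% interval of 0.21 to 1.25 (edgeR adjusted p = 0.128). Without Ctrl replicate 1, the lowest Ctrl sample, the log2 fold change of Kpna2 was smaller, at 0.49, and its edgeR adjusted p was 0.00346.

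Kpna3 (4312 bases), another importin alpha, had the largest fold change and the smallest p of all members, on few reads. It had 3.56, 5.55 and 6.62 CPM in the Rb2 samples and 2.06, 2.17 and 2.45 CPM in the Ctrl samples, so the groups did not overlap. Its log2 fold change was 1.23 with a standard error of 0.30 (edgeR adjusted p = 0.0625). Kpna1 (5231 bases) averaged 12.1 CPM in Rb2 and 7.93 CPM in Ctrl, with a log2 fold change of 0.60 and no overlap. Kpna6 (4676 bases) averaged 7.68 CPM in Rb2 and 7.63 CPM in Ctrl, with a log2 fold change of 0.01 and a 95% interval of -0.49 to 0.52. Kpna4 (2016 bases) and Kpna5 (1901 bases) had a mean of 5.67 and 1.5 counts per library, too few to test.

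Among the import receptors, which bind cargo themselves or through importin alpha, Tnpo1 and Tnpo2 had log2 fold changes of opposite sign, and neither passed the test. Tnpo1 (8517 bases), transportin 1, imports RNA-binding proteins such as hnRNP A1. It had 15.3, 19.1 and 15.1 CPM in the Rb2 samples and 7.64, 9.04 and 11.5 CPM in the Ctrl samples. Every Rb2 sample was above every Ctrl sample, and the log2 fold change was 0.82 with a 95% interval of 0.36 to 1.28 (edgeR adjusted p = 0.0668). Tnpo2 (5021 bases), its close relative, had 21.0, 18.5 and 21.0 CPM in the Rb2 samples and 43.2, 22.8 and 23.6 CPM in the Ctrl samples. The groups did not overlap, but Ctrl replicate 1 was far above the other Ctrl samples, and the log2 fold change of -0.58 had an edgeR adjusted p of 0.237. Without Ctrl replicate 1 that fold change was -0.18. Tnpo3 (4344 bases), which imports splicing factors rich in serine and arginine, had a log2 fold change of 0.39 with overlapping groups. Kpnb1 (5669 bases), importin beta 1 and the partner of importin alpha, had 51.3, 49.2 and 43.2 CPM in the Rb2 samples and 54.97, 38.1 and 40.4 CPM in the Ctrl samples. These overlap, with a log2 fold change of 0.10 and a 95% interval of -0.26 to 0.46 (-0.01 with a length offset fitted per library). The 5 tested Ipo genes (Ipo4, 3717 bases, Ipo5, 4628, Ipo7, 5292, Ipo9, 4266, and Ipo13, 3572) overlapped between the groups, with log2 fold changes from -0.19 (Ipo13) to 0.25 (Ipo7). Ipo11 (2931 bases) had 4, 1 and 2 counts in the Rb2 samples and 0 in each Ctrl sample, within or near the limit of 3 counts, so no fold is given.

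The 5 exportins summed to 67.6, 64.1 and 58.7 CPM in the Rb2 samples and 53.1, 44.6 and 49.97 CPM in the Ctrl samples, without overlap. Most of that gap was Xpo1 (5034 bases), the main exporter of proteins with a leucine-rich export signal. It had 35.2, 31.7 and 30.4 CPM in the Rb2 samples and 20.6, 20.2 and 25.5 CPM in the Ctrl samples. All Rb2 samples were higher, with a log2 fold change of 0.55 and a 95% interval of 0.21 to 0.89 (edgeR adjusted p = 0.0829). Xpo7 (4857 bases) averaged 7.52 CPM in Rb2 and 4.32 CPM in Ctrl, a log2 fold change of 0.81 without overlap. Xpo5 (5080 bases), the exporter of microRNA precursors, overlapped between the groups, with a log2 fold change of 0.05 and a 95% interval of -0.47 to 0.58. Xpo6 (4881 bases), the exporter of actin, and Xpo4 (9850 bases) also overlapped, with log2 fold changes of 0.02 and 0.01.

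**Figure D2:**
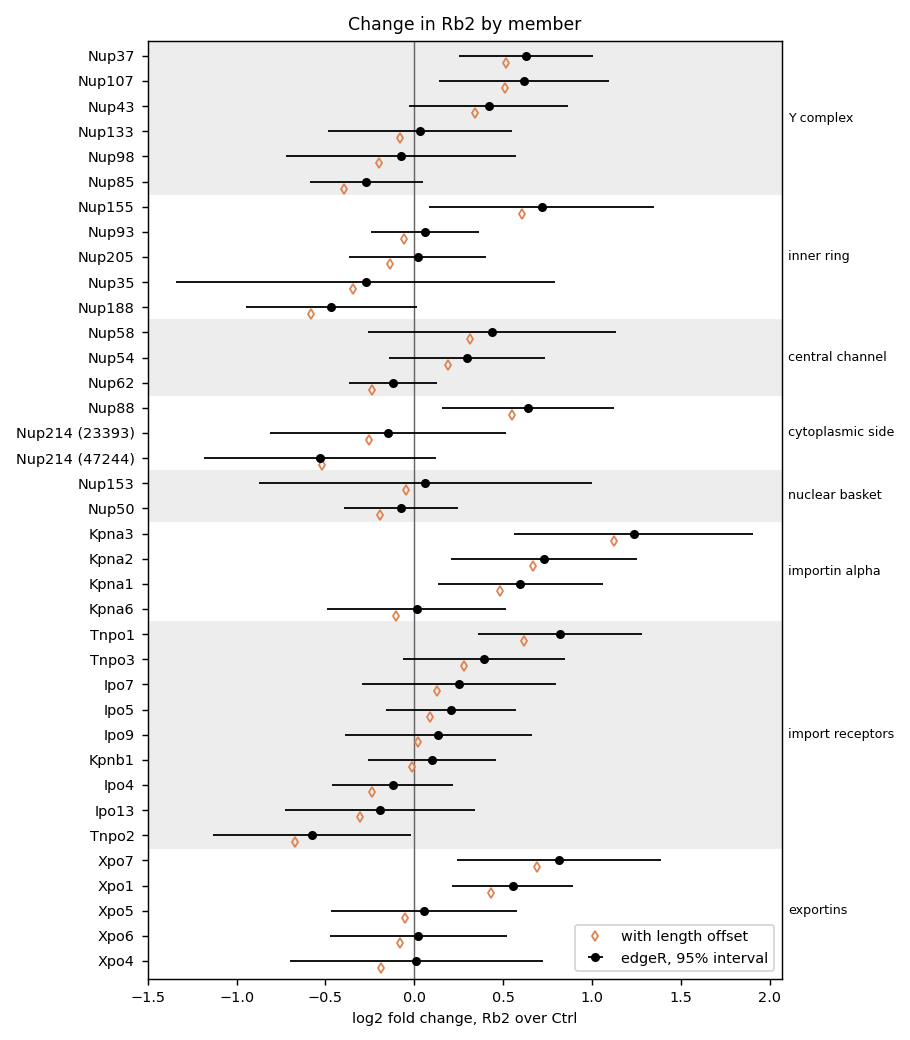
Log2 fold change of Rb2 over Ctrl for each tested member, grouped by role, with the 95% interval as a bar, the value under the length offset as a diamond and 0 as a line. Kpna3 is farthest to the right at 1.23 and Tnpo2 farthest to the left at -0.58, and no member passed the adjusted threshold.

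Among the scaffold genes, the Y complex was uneven. Nup37 (2944 bases), a small subunit of that ring, had 22.2, 25.7 and 22.4 CPM in the Rb2 samples and 13.0, 15.2 and 17.5 CPM in the Ctrl samples. All Rb2 samples were higher, with a log2 fold change of 0.63 and a 95% interval of 0.25 to 1.00 (edgeR adjusted p = 0.0764). Nup107 (3169 bases) and Nup43 (2091 bases), of the same complex, were also without overlap, at log2 fold changes of 0.62 and 0.42. Nup85 (2766 bases) was the most abundant of the complex per kilobase and lay the other way, with 101, 74.2 and 82.4 CPM in the Rb2 samples and 118, 99.8 and 93.1 CPM in the Ctrl samples. Its groups overlapped, with a log2 fold change of -0.27 and a 95% interval of -0.59 to 0.05. Nup98 (6885 bases) and Nup133 (3623 bases) overlapped, at -0.08 and 0.03, and Nup160 (3678 bases) had a mean of 4 counts and was not tested. Nup98 was placed in this class by the gene list, beside Nup96, which matched no row, and is not taken here as a subunit of the ring.

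In the inner ring, Nup93 (3484 bases), a scaffold nucleoporin and the most abundant there per kilobase, had 56.1, 49.9 and 45.4 CPM in the Rb2 samples and 42.6, 51.9 and 51.0 CPM in the Ctrl samples. The groups overlapped, with a log2 fold change of 0.06, which was -0.06 under the length offset, and a 95% interval of -0.24 to 0.36. Nup155 (4409 bases), which joins the inner ring to the pore membrane, had 5.70, 4.85 and 6.26 CPM in the Rb2 samples and 2.55, 3.07 and 4.72 CPM in the Ctrl samples. The Rb2 samples were all higher by a narrow margin, with a log2 fold change of 0.72 (edgeR adjusted p = 0.197). Nup188 (5663 bases) lay below its Ctrl values without overlap, at a log2 fold change of -0.47, while its paralogue Nup205 (6883 bases) was at 0.02 and Nup35 (1667 bases) at -0.27, both with overlap.

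No gene of the channel or of either face of the pore passed the test. Nup62 (3489 bases), the main repeat nucleoporin of the channel, had 64.2, 61.2 and 58.9 CPM in the Rb2 samples and 62.2, 67.6 and 70.6 CPM in the Ctrl samples. The groups overlapped, with a log2 fold change of -0.12 and a 95% interval of -0.36 to 0.12. Its partner Nup54 (2367 bases) had 7.83, 9.36 and 9.01 CPM in the Rb2 samples and 6.80, 7.59 and 6.99 CPM in the Ctrl samples. There was no overlap, at a log2 fold change of 0.30 (edgeR adjusted p = 0.434), and Nup58 (2478 bases) overlapped at 0.44. Nup88 (2412 bases), on the cytoplasmic face, had 26.3, 23.4 and 23.9 CPM in the Rb2 samples and 10.9, 16.6 and 20.1 CPM in the Ctrl samples. All Rb2 samples were higher, with a log2 fold change of 0.64 and a 95% interval of 0.15 to 1.13 (edgeR adjusted p = 0.138). Nup214, its binding partner there, is split over 2 rows of 5598 and 1175 bases with log2 fold changes of -0.15 and -0.53, and the division of reads between them is not stated. In the nuclear basket, Nup50 (3569 bases) had 36.3, 37.6 and 36.98 CPM in the Rb2 samples and 33.2, 45.2 and 38.6 CPM in the Ctrl samples, which overlap at a log2 fold change of -0.07 (0.04 with library size as the only scaling). Nup153 (6206 bases), of the same structure, was at 0.06 on a mean of 10.7 counts. The membrane genes could not be tested: Nup210 (6941 bases) had 1 count in all, and Nup210l (5760 bases) had 6, 8 and 4 counts in the Rb2 samples and 8, 0 and 8 counts in the Ctrl samples.

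The calls depended on which control was in the fit. Without Ctrl replicate 1, edgeR called 6 members higher (Kpna1, Kpna2, Kpna3, Nup37, Tnpo1 and Xpo1), against 5.08% of all genes called higher in that fit. Without Ctrl replicate 3, it called 3 higher (Nup37, Tnpo1 and Xpo1), against 3.6% of all genes. It called 0 without Ctrl replicate 2 (0.0167% of all genes), without Rb2 replicate 1 (0.205%), without Rb2 replicate 2 (0%) and without Rb2 replicate 3 (0.00826%). With library size as the only scaling it called 3 members (4.01% of all genes), with no filter on low counts 2 (1.69%), and with the length offset and no Ctrl replicate 1 it called 1 (4.27%). The members' median log2 fold change was 0.22 without Ctrl replicate 1, against 0.01 over all genes in that fit, and 0.05 to 0.17 with any other sample left out. Ctrl replicate 1 held the lowest Ctrl value in 20 of the 37 members and the highest in 14. Over the 20 alternatives run, Tnpo1 was called in 6, Kpna3 and Nup37 in 4, Xpo1 and Kpna2 in 3, and Kpna1 in 1.

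**Figure D3:**
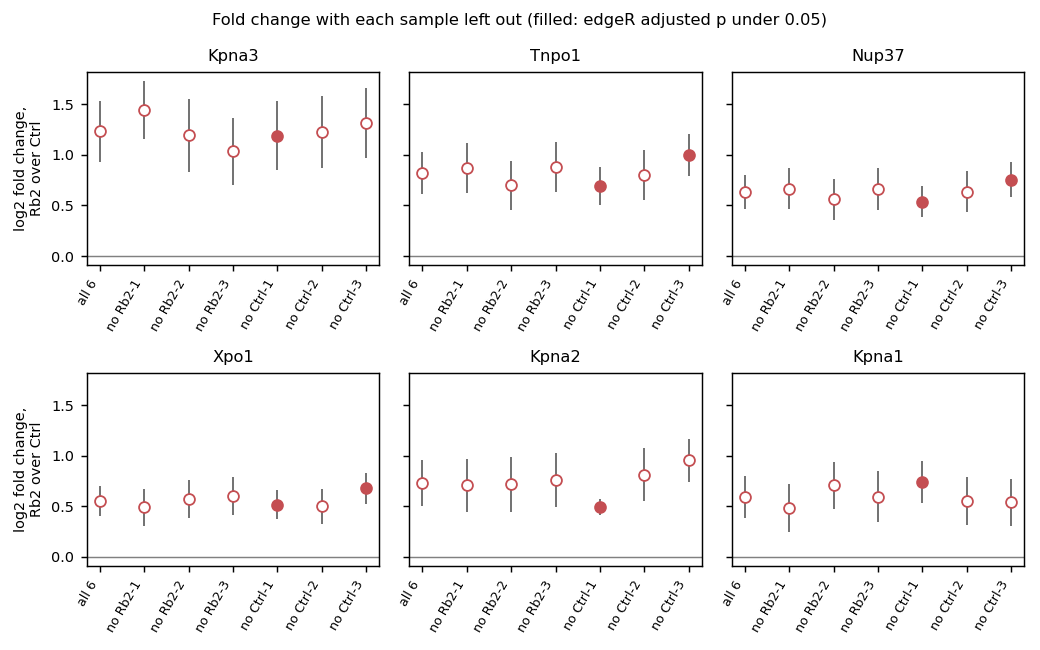
Log2 fold change of Rb2 over Ctrl, with its standard error as a bar, for the 6 members called in at least 1 alternative, with all 6 samples and with each sample left out in turn. Filled points (edgeR adjusted p under 0.05) appear in all 6 panels without Ctrl replicate 1 and in 3 panels (Tnpo1, Nup37 and Xpo1) without Ctrl replicate 3.

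The members' fold changes showed little relation to gene length. Their lengths run from 1175 to 9850 bases, and those tested had a median of 4344 bases, against 2594.5 bases for the known genes tested. The 12 members with all Rb2 samples higher had a median length of 3740.5 bases, the 3 with all Rb2 samples lower had 5021 bases, and the other 22 had 4486 bases. Across the 37 members, the log2 fold change had a Pearson r of 0.05 with log2 length and a Spearman rho of -0.05 with length. Both are a description, since the members share the same 6 libraries. Across the 8426 known genes the same r and rho were 0.13 and 0.11. After a length offset fitted per library, 0 members were called, against 1.4% of all genes called higher, and the members' median log2 fold change was -0.05, against -0.04 over all genes. With that offset the log2 fold change of Kpna3 was 1.13 (edgeR adjusted p = 0.0779), that of Tnpo1 was 0.62 (0.176) and that of Xpo1 was 0.43 (0.146).

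**Figure D4:**
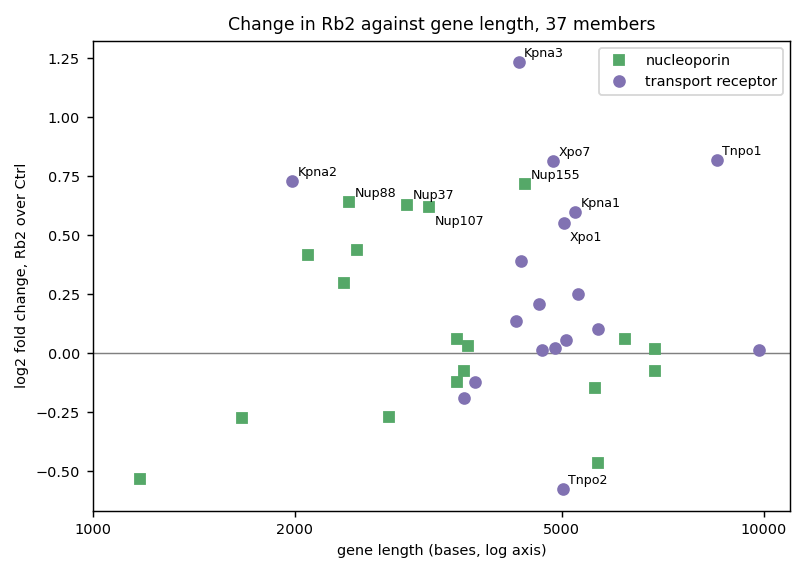
Log2 fold change of Rb2 over Ctrl against gene length (bases, log axis) for the 37 tested members, with squares for nucleoporins and circles for transport receptors. The 2 shortest members lie below 0 and the 2 longest above it, members between them lie on both sides, and the members named at the top run from Kpna2 (1980 bases) to Tnpo1 (8517 bases).

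The 43 genes have 104 transcripts, 51 from the annotation and 53 new models made by the authors, of which 54 were tested. None passed edgeR's test in Rb2 against Ctrl, as none of the 16679 transcripts did (0%), and 11 had an unadjusted p under 0.05, against 13.8% of all transcripts. DESeq2 called 0 member transcripts as well, against 2.09% of all. On simulated counts edgeR's transcript fit recovered 16% of 2-fold changes, so such changes could be missed. How a gene's counts divide among its transcripts was tested with edgeR's diffSpliceDGE, which called 0 of 13 member genes, against 0.417% of 3361 genes. On simulated counts that test recovered 14% of 4-fold shifts, so 0 calls do not show unchanged usage. At an unadjusted p under 0.05 stood 1 member gene, Kpna2, against 3.36% of all. Chosen after its values were seen, the longer Kpna2 model of 1978 bases held 97.8%, 100% and 98.1% of that gene's counts in the Rb2 samples and 88.1%, 94.0% and 95.2% in the Ctrl samples. The shares did not overlap, but the adjusted p for usage was 1.00, and the models of 1978 and 1952 bases differ little in length.

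Of 4 lists of other transport and envelope genes, 1 held called genes. Of 12 tested genes of the Ran cycle and other carriers, 2 rose and 0 fell, against 1.9% and 0.805% of all genes. Xpot, the exportin of transfer RNA, rose, with 23.0, 22.7 and 30.0 CPM in the Rb2 samples and 11.5, 11.7 and 16.6 CPM in the Ctrl samples (log2 fold change 0.93, edgeR adjusted p = 0.0464). Cse1l, which returns importin alpha to the cytoplasm, rose, with 9.61, 10.9 and 10.1 CPM in the Rb2 samples and 5.82, 5.42 and 5.59 CPM in the Ctrl samples (log2 fold change 0.86, edgeR adjusted p = 0.0493). The groups did not overlap in either gene. Both calls were close to the threshold, and on simulated counts false calls exceeded the share that it allows. Of the 20 alternatives, Xpot was called in 11 and Cse1l in 7. With the length offset the adjusted p was 0.0813 for Xpot and 0.064 for Cse1l, and over all alternatives it ran from 0.00921 to 0.201 for Xpot and from 0.021 to 0.236 for Cse1l. Both calls were lost without Ctrl replicate 2 and without any 1 of the Rb2 samples, and that of Cse1l also without Ctrl replicate 3. Over the 12 genes the median log2 fold change was -0.04, against -0.02 for all genes.

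Of 10 other nucleoporins tested, 0 were called, and 2 were higher at an unadjusted p under 0.05, against 11.8% of all genes and 14.8% of known genes. Ndc1, which anchors the pore in the membrane, had 6.58, 6.24 and 8.28 CPM in the Rb2 samples and 2.91, 3.61 and 4.54 CPM in the Ctrl samples (log2 fold change 0.94, edgeR adjusted p = 0.0772). Of 18 genes of messenger RNA export, 0 were called, and 5 were higher at an unadjusted p under 0.05, against the same 11.8% and 14.8%. Thoc1, a subunit of the THO complex, had 11.2, 9.88 and 9.38 CPM in the Rb2 samples and 2.91, 4.52 and 6.46 CPM in the Ctrl samples (log2 fold change 1.16, edgeR adjusted p = 0.0645). Of 10 genes of the lamina and envelope, 0 were called, with 1 higher and 1 lower at an unadjusted p under 0.05, against 11.8% and 8.17% of all genes. Tmpo, a lamina-binding protein of the inner nuclear membrane, had 20.1, 36.6 and 34.2 CPM in the Rb2 samples and 12.7, 12.5 and 19.4 CPM in the Ctrl samples (log2 fold change 1.03, edgeR adjusted p = 0.0689). These 3 genes had the smallest p of their lists, and their direction does not stand for the rest.

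Of 19 tested genes of cell division, 5 rose (Top2a, Nusap1, Kif23, Bub1 and Tpx2) and 0 fell, against 1.9% and 0.805% of all genes. The groups overlapped in 11 of the 19, and 4 had a log2 fold change below 0. With the length offset Bub1 (edgeR adjusted p = 0.0641) and Tpx2 (0.0536) were no longer called. Of the 20 alternatives, Top2a was called in 17, Nusap1 and Kif23 in 15, Bub1 in 11 and Tpx2 in 9. All 5 calls were lost without Ctrl replicate 2, without Rb2 replicate 2 and without Rb2 replicate 3, and all but Top2a also without Rb2 replicate 1. Top2a, a topoisomerase of dividing cells, had 29.9, 30.3 and 32.6 CPM in the Rb2 samples and 14.0, 12.8 and 13.8 CPM in the Ctrl samples (log2 fold change 1.19, edgeR adjusted p = 0.00751). The whole list of 20 genes summed to 1147, 1159 and 1137 CPM in the Rb2 samples and 886, 1124 and 1117 CPM in the Ctrl samples. Ctrl replicate 1 was lowest in that sum, as it was for Kpna2. The part of dividing cells in the members' values was not tested.

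Promoter windows are shown for the members called in at least 1 alternative, and for Tnpo2, the member with the lowest fold change, a choice made after their values were seen. RefSeq (assembly GRCr8) gives a window from 250 bases before to 50 after the start for 37 of the 42 symbols, but not for Kpna1, Kpna3, Kpnb1, Nup107 and Xpo7, so Kpna1 and Kpna3 are not shown. Capitals mark CCAAT, the box bound by NF-Y, and TTTGAA, the core of a repressor element of cell cycle genes, each read on either strand. Kpna2 lies on the minus strand at chr10:92445792-92446091, Xpo1 on the plus strand at chr14:101434200-101434499, Nup37 on the plus strand at chr7:24460982-24461281, Tnpo1 on the minus strand at chr2:32034277-32034576 and Tnpo2 on the minus strand at chr19:40024138-40024437.
Kpna2: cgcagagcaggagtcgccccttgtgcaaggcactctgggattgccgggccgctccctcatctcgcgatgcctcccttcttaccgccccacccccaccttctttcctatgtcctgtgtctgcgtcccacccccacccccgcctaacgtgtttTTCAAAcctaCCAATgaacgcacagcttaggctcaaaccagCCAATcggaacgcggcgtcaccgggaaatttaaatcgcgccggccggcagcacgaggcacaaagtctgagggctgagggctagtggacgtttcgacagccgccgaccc
Xpo1: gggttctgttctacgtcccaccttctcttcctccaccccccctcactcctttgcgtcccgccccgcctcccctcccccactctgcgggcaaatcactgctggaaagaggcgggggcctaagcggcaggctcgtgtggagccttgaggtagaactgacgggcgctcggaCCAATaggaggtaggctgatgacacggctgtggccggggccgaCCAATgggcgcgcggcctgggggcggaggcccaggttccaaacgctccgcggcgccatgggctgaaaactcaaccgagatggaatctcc
Nup37: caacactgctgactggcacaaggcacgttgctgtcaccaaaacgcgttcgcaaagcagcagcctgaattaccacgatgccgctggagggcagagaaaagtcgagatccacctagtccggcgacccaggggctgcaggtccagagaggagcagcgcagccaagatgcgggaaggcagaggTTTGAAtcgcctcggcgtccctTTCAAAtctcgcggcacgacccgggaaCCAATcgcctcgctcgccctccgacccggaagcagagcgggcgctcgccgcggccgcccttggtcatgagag
Tnpo1: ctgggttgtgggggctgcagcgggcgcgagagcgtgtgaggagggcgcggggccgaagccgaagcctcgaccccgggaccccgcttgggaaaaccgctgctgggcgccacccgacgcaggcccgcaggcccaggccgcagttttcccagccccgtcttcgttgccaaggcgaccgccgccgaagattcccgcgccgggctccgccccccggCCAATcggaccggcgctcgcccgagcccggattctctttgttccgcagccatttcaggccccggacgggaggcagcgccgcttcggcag
Tnpo2: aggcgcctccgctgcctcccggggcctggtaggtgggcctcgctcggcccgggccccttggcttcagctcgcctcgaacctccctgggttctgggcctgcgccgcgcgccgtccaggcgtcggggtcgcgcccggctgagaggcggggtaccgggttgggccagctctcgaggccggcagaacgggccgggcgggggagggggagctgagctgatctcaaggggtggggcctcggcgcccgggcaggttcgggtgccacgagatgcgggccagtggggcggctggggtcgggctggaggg

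The Kpna2 window holds CCAAT at 89 and 58 bases before the start and 1 TTTGAA, here as TTCAAA. The Xpo1 window holds CCAAT at 82 and 39 bases before the start, the Nup37 window holds 1 CCAAT and 2 TTTGAA, the Tnpo1 window holds 1 CCAAT, and the Tnpo2 window holds neither. CCAAT was in 19 of the 37 member windows (51.4%), against 37.5% of all 33469 windows of that length. TTTGAA was in 7 (18.9%), against 18.3% of all. GGGCGG, the GC box, was in 24 (64.9%), against 33.1% of all, and ACGTG in 14 (37.8%), against 19.3%. TTTNNCGC was in 7 (18.9%), against 4.92%, and the NRF1 motif in 4 (10.8%), against 4.25%. All motifs were searched on both strands and overlaps were allowed, and a match is a description, not a site or a cause. Each member symbol was given 1 window, the first listed. The windows it is set against were not reduced to 1 per gene or to expressed genes, so the shares are not like for like.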

How the data were processed

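Counts per gene and per transcript are the authors' deposited whole numbers, with the gene length. The deposited CPM tables are these counts divided by the column total and scaled. The submitters' processing notes list HISAT2, DESeq2 and mm10 (a mouse build) without roles, while gene identifiers are of the rat. The counter, annotation and read length were not given in the sources used here, so no coordinates were taken from the files. In each table, 18 columns of other per-sample values were left unused. The fits used edgeR 4.0.16 in R 4.3.3 (TMM, filterByExpr, robust quasi-likelihood, group as the only term), with Benjamini-Hochberg adjustment over all genes and a threshold of 0.05. Alternatives were other scalings, filters, DESeq2 1.42.0, limma 3.58.1, a length offset (loess, span 0.5), known genes only, a replicate block and each sample left out. Rows with no symbol held 0.536% of counts and stayed in the fit. Members and lists were chosen with earlier results of these data known; 155 of 178 listed genes matched by symbol. Values per sample are given for the member with the smallest p and the highest level per kilobase in each role class, the largest fold each way, and the called or smallest-p genes of each list. On simulated counts the gene fit recovered 54% of 2-fold and 98% of 4-fold changes, and called 22 unchanged genes. The transcript fit recovered 16% and 72%, and called 13 unchanged transcripts. The usage test recovered 14% of 4-fold shifts and called 7 unchanged genes. Changes were planted only in genes or transcripts with a mean count of at least 20. In each of these simulations false calls were a larger share of all calls than the threshold of 0.05 allows, so calls close to it are less sure.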

Additional observations from a re-analysis of the deposited data

How the results depend on the processing

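The 6 members called in any alternative kept a positive fold change in every alternative run. They were chosen by calls in these same refits of 6 libraries, so the constant sign is no separate evidence. No alternative called a member lower. Beside each count of members higher in Rb2 stands the share of all genes called higher in that fit. The count, 0 as reported (1.9%), was 3 with library size only (4.01%), 2 with no low-count filter (1.69%) and 1 with DESeq2 (2.8%). Limma on the deposited CPM gave 4 and 1 at pseudocounts of 1 and 0.1 (4.06% and 3.33%). The length offset with Ctrl replicate 1 left out gave 1 (4.27%). Leaving out each sample gave 0 to 6, against 0% to 5.08% of all genes. Member transcripts and transcript usage had 0 calls in every alternative run. The other scalings and filters, limma-voom, known genes only, transcript sums, the length offset and the replicate block gave 0 members higher. In those fits 0.104% to 1.9% of the genes tested were called higher. Same-numbered samples did not deviate together (correlations -0.067, -0.061 and -0.007). With 3 samples per group, this cannot settle whether the numbers pair them. The replicate block called 12 genes higher and 21 lower in all.

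Library size only, and limma on deposited CPM, put the median of all genes at 0.095 to 0.11, against -0.02 with TMM, and the members' median at 0.17 to 0.23. Near 0, directions turned. Nup50 was 0.039 with library size only, 0.045 and 0.046 with limma on deposited CPM at pseudocounts of 1 and 0.1, and -0.16 to 0.050 with 1 sample left out. Kpnb1 was -0.015 with the length offset. Nup93 was -0.056 with the length offset, -0.15 with that and Ctrl replicate 1 left out, and -0.022 to 0.13 with 1 sample left out. The cause was not tested. Depth limits the family: 16 of 37 tested members had a mean count under 50, and 5 under 20.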

Other observations

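Counts of single transcript models moved between libraries within a gene, in examples chosen after their values were seen. For Xpo7, the new model of 4757 bases had 46, 30 and 6 counts in the Rb2 samples and 0, 30 and 0 in the Ctrl samples. The annotated transcript of 4824 bases had 0, 19 and 26 counts in the Rb2 samples and 29, 0 and 23 in the Ctrl samples. For Tnpo2, the new model of 4811 bases had 14, 27 and 24 counts in the Rb2 samples and 280, 41 and 43 in the Ctrl samples, so that the high gene count of Ctrl replicate 1 lies in that model. A further Tnpo2 model of 4813 bases had 58 counts in Rb2 replicate 1 and 0 in every other sample.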
